A study of Mus musculus with 42 samples.

Results

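The change over the first postnatal day in air-breathing lungs of Nfe2l2 knockout mice was taken from 6 of the 42 arrays of the study. Of these, 3 came from knockout mice kept in air to postnatal day 2 (P2, age 1 day) and 3 from knockout mice taken on the day of birth (P1, age 0 days). The arrays were chosen by their titles alone, and all 18194 measured genes were tested. The labels write the knockout as Nrf-/- and the wild type as Nrf+/+. Beside these groups stand 3 knockout mice of P2 that had spent the same day in hyperoxia, and the wild-type mice in air, 3 of P2 and 3 of P1. The study asked how the loss of the gene affects lung growth after birth and the lung injury caused by high oxygen, which in newborn mice serves as a model of bronchopulmonary dysplasia, a chronic lung disease of preterm infants. RNA of the whole lung homogenate of 1 mouse went onto each array, and pups stayed with foster dams. The labels read here state neither strain, sex nor hour of dissection.

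NRF2, the product of Nfe2l2, is a transcription factor that answers oxidative stress by raising genes of glutathione, quinone and heme metabolism. At birth the lung replaces fluid with air, spreads surfactant over its surface and meets a higher oxygen tension, and in the mouse it is then a saccular organ whose alveoli form later. Growth of the newborn lung rests on dividing mesenchymal, endothelial and epithelial cells.

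Values are the deposited log2 intensities, and a difference of 1 on this scale is a 2-fold difference in intensity. A gene was called where limma's adjusted p was under 0.05, after Benjamini-Hochberg adjustment over all 18194 genes in a fit of all 42 arrays. Intensities of different genes are not compared. The 10th percentile of an array's probe sets lay between 4.22 and 4.35, so a gene near that level is at the bottom of the scale, and its difference from a higher level is a minimum.

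The targeted gene matched the labels. Nfe2l2 lay between 4.26 and 5.46 on the 21 knockout arrays, against 10.32 to 11.56 on the 21 wild-type arrays. Its values were 4.62, 4.70 and 4.45 in knockout P2 lungs, against 4.69, 5.08 and 4.51 in knockout P1 lungs, so it was near the bottom of the scale at both ages. Lung identity was plain on all 6 arrays, with the surfactant protein gene Sftpc at 14.60 to 14.70 in knockout P2 lungs and 14.73 to 14.77 in knockout P1 lungs. The club cell gene Scgb1a1 had 14.61, 14.70 and 14.63 in knockout P2 lungs, against 14.79, 14.66 and 14.60 in knockout P1 lungs.

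The knockout P2 arrays stood apart from the others in thymus transcripts. The thymus is the organ in which T cells mature, and its cells rearrange their receptor genes with the recombinase Rag1. Rag1 had 12.64, 8.97 and 12.05 in knockout P2 lungs, against 5.05, 5.16 and 4.72 in knockout P1 lungs. A thymocyte score was formed as the mean of 21 measured thymocyte genes, each centred on its mean over the 42 arrays. It was 3.75, 0.72 and 2.82 in replicates 1, 2 and 3 of knockout P2 air, against -0.45, -0.27 and -0.50 at knockout P1. On the other 39 arrays it ran from -0.57 to 1.03. Replicates 1 and 3 thus lay above every other array, while replicate 2 lay within the range of the rest. Knockout P2 replicate 3 also carried genes of other tissues, with scores of 3.05 for 13 liver genes, 1.36 for 15 heart muscle genes, 1.84 for 17 skeletal muscle genes and 1.28 for 10 fat genes. In replicate 2 the same scores were -1.15, -0.76, -0.68 and -0.53, and over the 3 knockout P1 arrays they ran from -1.29 to -0.62, from -0.68 to -0.22, from -0.54 to -0.33 and from -0.45 to -0.34. List medians and most of the named genes are therefore also given for P2 replicate 2 alone, as its difference from the mean of the 3 P1 arrays. Wild-type arrays also carried genes of other tissues. Liver scores were -1.46, 6.60 and 2.125 at wild-type P2, and -0.57, 4.14 and 0.54 at wild-type P1. Heart muscle scores were 2.35, -0.20 and 0.70 at wild-type P2, and 2.46, 0.02 and 0.21 at wild-type P1. Wild-type P2 replicate 1 had 1.64 for skeletal muscle and 1.49 for fat. The wild-type changes and the genotype differences rest on these arrays.

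**Figure D1:**
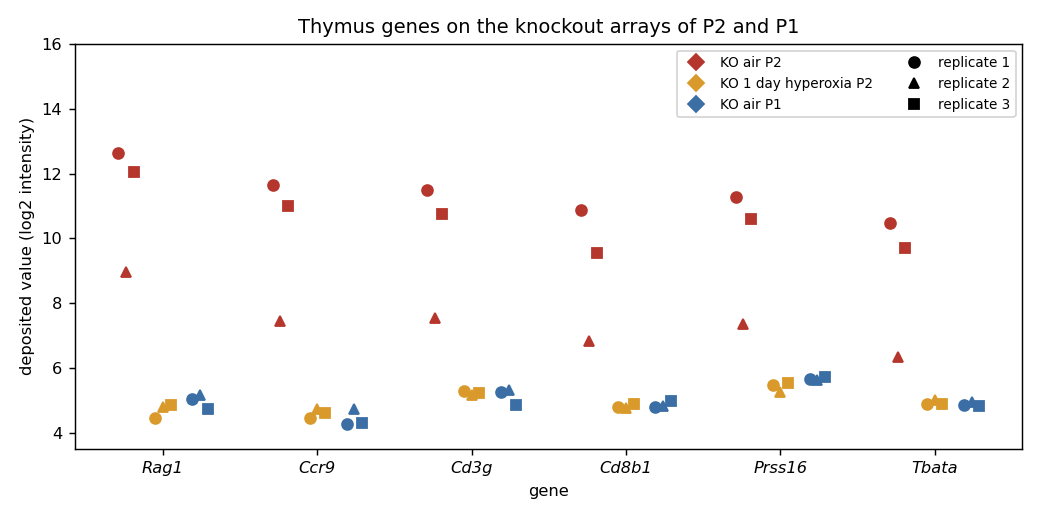
Deposited log2 intensity (vertical axis) of 6 genes of thymocytes and thymic epithelium on the 3 arrays of knockout air P2, knockout hyperoxia P2 and knockout air P1, each point being 1 mouse. Knockout air P2 replicates 1 and 3 lie far above replicate 2, which lies above all hyperoxia P2 and P1 arrays.

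With all arrays, 2427 of 18194 genes were called between knockout P2 and P1 in air, which is 13.3%. Of these, 1249 were higher at P2 (6.86%) and 1178 lower (6.47%). Rises were larger than falls: 270 of the called rises and 11 of the called falls were at least 2-fold. The median called rise was 0.50 and the median called fall -0.37. For the same genes the medians were 0.24 and -0.23 with P2 replicate 2 alone. Values of P2 and P1 did not overlap in 3759 genes (20.7%), and 1841 genes were both called and not overlapping.

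The count depended on which arrays entered. Leaving out P2 replicate 1 gave 774 calls, of which 748 were among the 2427, and leaving out P2 replicate 3 gave 1922, of which 1603 were among them. Without P2 replicate 2 the count was 3893. Leaving out P1 replicate 1, 2 or 3 gave 1726, 1604 or 1868. Without both replicates 1 and 3 it was 14 (0.0769%), with 2128 genes at an unadjusted p under 0.05, and 12 of the 14 were among the 2427. The 9 higher calls of that fit are 0.0495% of all genes and the 5 lower calls 0.0275%. That fit holds 1 P2 array and assumes that it varies like the arrays of the other groups. With the thymocyte score as a covariate limma called 0 genes, with 1648 at an unadjusted p under 0.05. The median standard error was then 0.17, against 0.11 in the fit without the covariate. A fit of the 6 arrays alone also called 0 genes, with 2710 at an unadjusted p under 0.05. Of the 1249 called rises, 263 kept at least 70% of their size in P2 replicate 2, and of the 1178 called falls 428 did. This share was set after the values were seen. In lung homogenate, fewer cells of a type and less RNA per cell cannot be told apart.

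**Figure D2:**
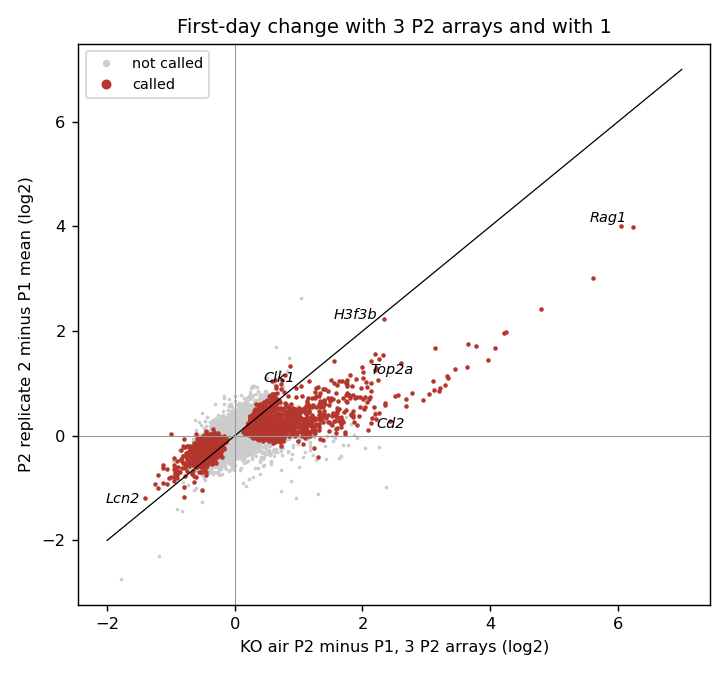
Log2 difference between knockout P2 and P1 in air for each of 18194 genes, from all 3 P2 arrays (horizontal axis) and from P2 replicate 2 alone (vertical axis), with called genes in red and the diagonal marking equal values. Rag1 and the thymus genes lie far below the diagonal, and H3f3b, Clk1 and Lcn2 lie near it.

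The largest rises were those of T cell genes. Among named genes called without overlap between the groups, the 12 largest rises were all of T cell receptor, thymocyte or thymic stroma genes. Rag1 differed by 6.24 ± 0.84 (SE, adjusted p = 2.04e-05 in limma), and by 3.99 in P2 replicate 2 alone. Trbv1, a T cell receptor beta segment, had 13.03, 9.68 and 12.49 in knockout P2 lungs, against 5.29, 6.05 and 5.70 in knockout P1 lungs. The groups were far apart, and replicate 2 stood about midway between them. Ccr9, the receptor that draws T cell precursors along the chemokine CCL25, had 11.65, 7.44 and 10.998 in knockout P2 lungs, against 4.28, 4.72 and 4.28 in knockout P1 lungs, which lie at the bottom of the scale. The CD3 chain genes Cd3g and Cd3d differed by 4.796 ± 0.62 and 3.78 ± 0.47, the co-receptor chain Cd8b1 by 4.22 ± 0.50, and the T cell transcription factors Bcl11b and Satb1 by 4.25 ± 0.57 and 3.66 ± 0.44. In replicate 2 alone Cd3g, Cd3d, Cd8b1, Bcl11b and Satb1 were higher by 2.42, 1.72, 1.96, 1.97 and 1.75.

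Genes of the thymic stroma rose as well. Prss16, a protease of thymic cortical epithelium, had 11.29, 7.34 and 10.60 in knockout P2 lungs, against 5.64, 5.63 and 5.70 in knockout P1 lungs. Tbata, a gene of thymic stroma, had 10.46, 6.32 and 9.71 in knockout P2 lungs, against 4.84, 4.94 and 4.83 in knockout P1 lungs. Ccl25, the chemokine that thymic epithelium makes for CCR9, differed by 3.64 ± 0.48. In each of these genes all 3 P2 arrays were above all 3 P1 arrays. Of the 21 thymocyte genes 20 rose and 0 fell, with a median difference of 2.52 against -0.04 over all genes. The exception was Cd8a, with a difference of 0.05. In P2 replicate 2 alone the median was 0.77, and all 21 differences were above 0.

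By the thymocyte score, the other lungs of the same age lay below knockout P2 replicates 1 and 3. Set against the same P1 arrays, knockout P2 lungs after 1 day of hyperoxia had 0 of the 21 thymocyte genes called, with a median of -0.11, where 2416 of all genes (13.3%) were called, 6.71% higher and 6.57% lower. Their Rag1 values were 4.44, 4.79 and 4.86. In the wild type, P2 minus P1 in air gave 0 of 21, with a median of 0.18, where 2638 of all genes (14.5%) were called, 6.25% higher and 8.25% lower. Rag1 had 7.13, 6.45 and 6.78 in wild-type P2 lungs, against 4.20, 4.60 and 4.91 in wild-type P1 lungs, without overlap (adjusted p = 0.0768 in limma). The thymocyte scores were 0.02, -0.28 and -0.19 in wild-type P2 lungs, against -0.49, -0.48 and -0.46 in wild-type P1 lungs. Called for a change higher in the knockout than in the wild type were 315 of all genes (1.73%) and 17 of the 21 thymocyte genes. That count was 0 with P2 replicate 2 alone, where 202 of all genes (1.11%) were called. At knockout P3 and P4 in air Rag1 averaged 5.69 ± 0.61 and 7.95 ± 0.79 (SD, n = 3 each).

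Antigen presentation genes moved with the thymus genes. Of 16 measured genes of the MHC and its loading machinery, 11 rose and 0 fell, with a median of 0.64. H2-Ab1 and H2-Aa, the chains of an MHC class II molecule, differed by 1.75 ± 0.29 and 1.71 ± 0.29. H2-Ab1 had 10.39, 8.30 and 9.99 in knockout P2 lungs, against 7.79, 7.66 and 7.98 in knockout P1 lungs. The immunoproteasome subunit genes Psmb9 and Psmb8 differed by 1.38 ± 0.24 and 1.32 ± 0.26. P2 replicates 1 and 3 were the high arrays in each of these 4 genes. In P2 replicate 2 alone the median of the list was 0.21, and the differences of H2-Ab1, H2-Aa, Psmb9 and Psmb8 were 0.49, 0.45, 0.56 and 0.34. No member was called in knockout hyperoxia P2 lungs (median 0.11) or in the wild type (median 0.05). The lymphocyte-bearing lists did not all go up. The B cell receptor genes Cd79a and Cd79b fell by 0.64 and 0.52, and were lower by 0.76 and 0.69 in replicate 2.

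**Figure D3:**
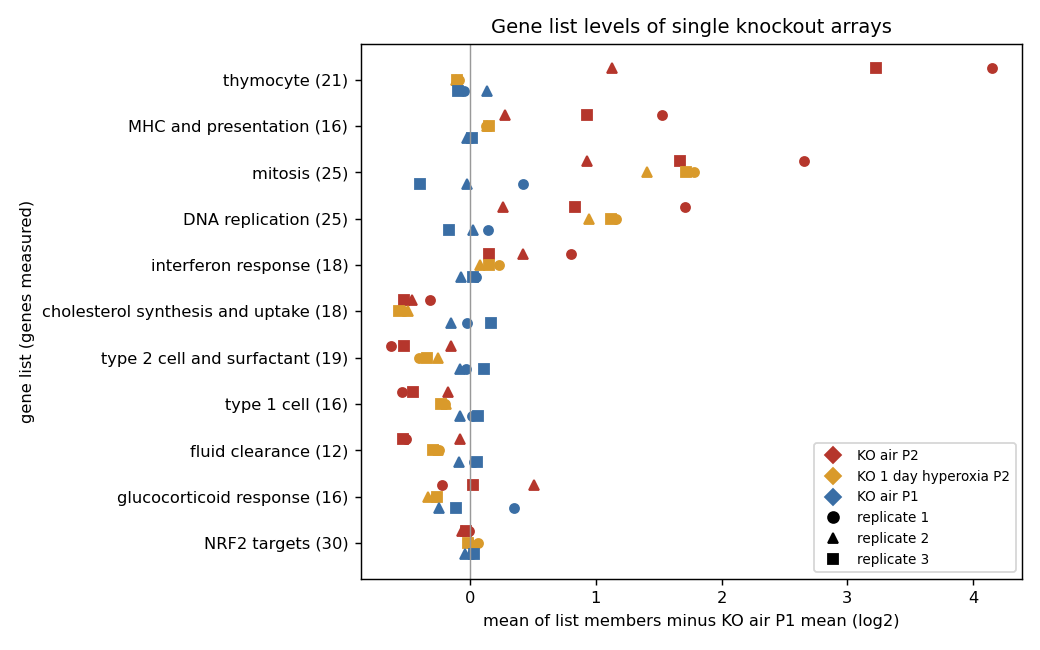
Mean level of 11 gene lists on single knockout arrays, as the log2 difference from the knockout air P1 mean (horizontal axis), with 1 row per list, the number of measured genes in brackets and each point being 1 mouse. Among the knockout air P2 arrays the thymocyte, MHC, DNA replication and mitosis rows are higher in replicates 1 and 3 than in replicate 2, and the cholesterol row holds all 3 knockout air P2 arrays and all 3 hyperoxia P2 arrays below all P1 arrays.

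Mitosis genes were higher at P2 on every knockout array. Of 25 measured genes, 24 rose and 0 fell, with a median difference of 1.81. The proliferation marker Mki67 had 10.73, 9.23 and 10.18 in knockout P2 lungs, against 8.48, 8.30 and 7.65 in knockout P1 lungs. The groups did not overlap, replicate 1 was the highest and replicate 2 the lowest of the P2 arrays. The difference was 1.90 ± 0.28, a 3.74-fold rise (adjusted p = 7.29e-05 in limma). Ccnb2, a cyclin of the G2 to M transition, had 10.50, 8.51 and 9.34 in knockout P2 lungs, against 7.89, 7.29 and 6.57 in knockout P1 lungs. Top2a, the topoisomerase that untangles chromosomes, differed by 2.08 ± 0.34, and Birc5, the survivin of the chromosomal passenger complex, by 2.24 ± 0.36. Cep55, which acts at the last cut between daughter cells, had the largest difference of the list at 2.33 ± 0.35. In replicate 2 Top2a and Birc5 stood at 0.93 and 1.06. Ndc80, a kinetochore subunit, was the member not called, with 8.07, 6.50 and 7.43 in knockout P2 lungs, against 6.85, 6.83 and 6.13 in knockout P1 lungs.

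Replicate 2, with a thymocyte score of 0.72, and the hyperoxia lungs were also higher than P1 in mitosis genes. In P2 replicate 2 alone the median of the 25 genes was 1.00, and 24 differences were above 0. Mki67 differed by 1.09 there, Ccnb2 by 1.25 and Cep55 by 1.55. In knockout hyperoxia P2 lungs, whose thymocyte scores were -0.51 to -0.49, 24 of 25 genes were higher than on the shared P1 arrays, with a median of 1.62. Wild-type lungs had 25 of 25 higher at P2, with a median of 1.41. The change differed between knockout and wild type in 0 of the 25 genes by limma. The mitosis score of the list was 0.95, -0.77 and -0.03 at knockout P2, against -1.28, -1.73 and -2.10 at knockout P1. It was 0.32, -0.47 and -0.40 at P3 and 1.20, 0.86 and 1.19 at P4, so that replicate 1 of P2 lay within the range of the P4 lungs. With the thymocyte score as a covariate the median difference of the list was 0.46.

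Promoters of the mitosis genes often hold a CCAAT box and the letters TTTGAA, known as the core of the cell cycle homology region. Among the 22 list members with a promoter in the table, 17 held CCAAT (77.3%) and 16 held TTTGAA (72.7%), on either strand, in the 300 bases from 250 before to 50 after the start of transcription. Of all 27025 promoters, 37.9% held CCAAT and 18.1% held TTTGAA. The 150 bases before the start are printed for 3 members that rose, Ccnb2 (chr9:70421555-70421704), Cdk1 (chr10:69352913-69353062) and Cdc20 (chr4:118437344-118437493), all on the minus strand of GRCm38.p6 as given by RefSeq. Capitals mark CCAAT and TTTGAA, or their complement on the other strand.
Ccnb2: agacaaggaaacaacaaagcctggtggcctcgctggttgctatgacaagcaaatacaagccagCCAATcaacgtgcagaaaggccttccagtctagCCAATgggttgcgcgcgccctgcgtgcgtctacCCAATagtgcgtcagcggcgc
Cdk1: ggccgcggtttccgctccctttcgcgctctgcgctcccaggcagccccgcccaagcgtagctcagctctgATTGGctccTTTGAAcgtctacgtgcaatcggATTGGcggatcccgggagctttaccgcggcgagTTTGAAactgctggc
Cdc20: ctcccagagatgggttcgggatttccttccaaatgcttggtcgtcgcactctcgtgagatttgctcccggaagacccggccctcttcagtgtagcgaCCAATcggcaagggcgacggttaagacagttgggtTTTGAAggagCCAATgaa
Ccnb2 shows 3 CCAAT boxes, Cdk1 shows 2 of each motif, and Cdc20 shows 2 CCAAT boxes and 1 TTTGAA. Cdk1, the kinase that drives entry into mitosis, differed by 1.31 ± 0.29 between knockout P2 and P1 and by 0.40 in P2 replicate 2. Cdc20, the activator of the anaphase-promoting complex, differed by 1.59 ± 0.26 and by 0.81 in P2 replicate 2. The matches describe these windows and were not tested as binding sites.

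DNA replication genes rose less evenly over the P2 arrays. Of 25 measured genes, 20 rose and 0 fell, with a median of 0.92. Mcm7, a subunit of the replicative helicase, had 12.08, 10.44 and 11.24 in knockout P2 lungs, against 10.22, 10.15 and 9.99 in knockout P1 lungs. The groups did not overlap, but replicate 2 was within 0.32 of the P1 mean. Rrm2, the regulatory subunit of ribonucleotide reductase, differed by 2.14 ± 0.37 and by 0.85 in replicate 2. Pcna, the sliding clamp of DNA polymerases, differed by 0.90 ± 0.16 and by 0.27 in replicate 2. The median of the list was 0.26 with replicate 2 alone and -0.05 with the thymocyte score as a covariate. Without P2 replicate 1, 9 members were called higher, where 2.2% of all genes were, and without P2 replicate 3, 20 were. Knockout hyperoxia P2 lungs had 22 members higher than the P1 arrays, with a median of 1.06, and the wild type had 22 higher, with a median of 0.93. The E2F motif TTTCGCGC was in 4 of 22 promoters of the list, against 0.318% of all promoters, and the form TTTGGCGC in 6 of 22, against 0.537%.

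Cholesterol synthesis genes fell, and the mean of the list was lower on all 3 P2 arrays than on all 3 P1 arrays. Lung cells need cholesterol for membranes and, in type 2 cells, for surfactant, and the transcription factor SREBP2 raises the enzymes of its synthesis when sterols are scarce. Of 18 measured genes, 13 fell and 0 rose, with a median of -0.46 against -0.04 over all genes, and all 18 differences were below 0. Insig1, which holds the SREBP complex in the endoplasmic reticulum, had 8.34, 8.28 and 7.79 in knockout P2 lungs, against 9.29, 9.05 and 9.25 in knockout P1 lungs. It was lower on every P2 array, by 1.06 ± 0.16 on average (2.09-fold, adjusted p = 8.68e-05 in limma).

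Enzymes of early and late steps were among those that fell. Hmgcs1, which makes HMG-CoA, had 11.52, 11.56 and 11.59 in knockout P2 lungs, against 11.94, 11.88 and 12.19 in knockout P1 lungs. Mvk, mevalonate kinase, had 7.85, 7.75 and 7.79 in knockout P2 lungs, against 8.12, 8.02 and 8.39 in knockout P1 lungs. Mvd, which makes isopentenyl diphosphate, had 7.67, 7.59 and 7.54 in knockout P2 lungs, against 8.01, 8.12 and 8.45 in knockout P1 lungs. In each of these 3 genes the P2 values were close together and below all P1 values. Idi1, the isomerase of isopentenyl diphosphate, fell by 0.48 with overlapping values, since P2 replicate 1 had 10.17 and P1 replicate 2 had 10.08. Farther down, Fdps fell by 0.56, Fdft1, the squalene synthase, by 0.54, Sqle by 0.47, and the demethylation enzymes Cyp51, Msmo1 and Nsdhl by 0.48, 0.52 and 0.46. In replicate 2 Fdps, Fdft1 and Sqle stood at -0.69, -0.59 and -0.54. The gene of SREBP2 itself, Srebf2, had 9.99, 9.86 and 9.93 in knockout P2 lungs, against 10.26, 10.05 and 10.18 in knockout P1 lungs, without overlap (adjusted p = 0.12). Other members not called were Pmvk, Stard4, Dhcr7 and Sc5d, with differences of -0.22, -0.22, -0.13 and -0.10.

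P2 replicate 2, with a thymocyte score of 0.72, had lower cholesterol genes as well. In P2 replicate 2 alone the median was -0.46 and 17 of 18 differences were below 0, with 1 member, Dhcr7, called in that fit. Insig1 differed by -0.92, Hmgcs1 by -0.43 and Mvd by -0.60 there. With the thymocyte score as a covariate the median was -0.39, and 0 genes of any list were called in that fit. Without P2 replicate 1, 11 members were called lower, where 373 of all genes (2.05%) were, and without P2 replicate 3, 8 were, where 676 of all genes (3.72%) were. Knockout hyperoxia P2 lungs had 15 of 18 members lower than the shared P1 arrays, with a median of -0.51. The wild type had 15 of 18 lower at P2, with a median of -0.50. Of the 18 genes, 1 differed in its change between the genotypes: Pmvk, phosphomevalonate kinase, had a difference of -0.22 in the knockout and -1.05 in the wild type (adjusted p of the difference 0.0163 in limma, and 0.0877 with P2 replicate 2 alone).

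**Figure D4:**
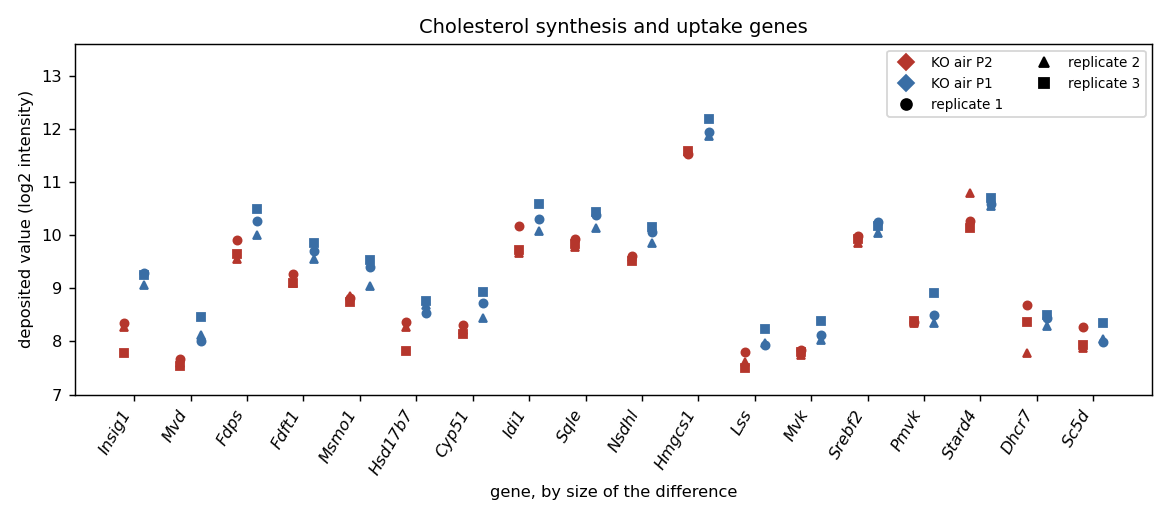
Deposited log2 intensity (vertical axis) of 18 genes of cholesterol synthesis and uptake on the 3 knockout air P2 and the 3 knockout air P1 arrays, in order of the difference, each point being 1 mouse. In Insig1, Mvd, Hmgcs1 and Mvk all P2 points lie below all P1 points.

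Of the 14 cholesterol list members with a promoter in the table, 13 held CCAAT (92.9%), against 37.9% of all promoters and 75% of clock gene promoters. NF-Y, the factor known to bind CCAAT, works with SREBP2 at sterol genes. The letters TCACNCCAC, a form of the sterol regulatory element searched after the data were seen, were in 1 of the 14 and in 1.22% of all promoters. The 150 bases before the start are printed for 3 members that fell on all P2 arrays or nearly so, Hmgcs1 (chr13:119690201-119690350), Idi1 (chr13:8885456-8885605) and Mvk (chr5:114444119-114444268), all on the plus strand of GRCm38.p6 as given by RefSeq. Capitals mark CCAAT on either strand and, in Hmgcs1, the sterol letters.
Hmgcs1: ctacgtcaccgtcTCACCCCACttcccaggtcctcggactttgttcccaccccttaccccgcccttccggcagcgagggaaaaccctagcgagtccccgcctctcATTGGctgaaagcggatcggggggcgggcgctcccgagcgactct
Idi1: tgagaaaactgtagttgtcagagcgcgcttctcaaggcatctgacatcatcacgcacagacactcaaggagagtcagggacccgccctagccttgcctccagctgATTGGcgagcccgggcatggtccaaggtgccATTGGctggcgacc
Mvk: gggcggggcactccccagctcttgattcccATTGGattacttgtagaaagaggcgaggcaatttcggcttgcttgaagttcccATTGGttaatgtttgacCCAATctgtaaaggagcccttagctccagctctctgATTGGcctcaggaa
Mvk shows 4 CCAAT boxes on its 2 strands, Idi1 shows 2 and Hmgcs1 shows 1. A match is a description of these letters only.

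Alveolar epithelial genes fell, with the smallest differences in P2 replicate 2. Of all genes 6.47% fell. Of 19 genes of type 2 cells and surfactant, 11 fell and 0 rose, with a median of -0.43. Of 16 genes of type 1 cells, which form the gas exchange surface, 8 fell and 0 rose, with a median of -0.35. Napsa, the aspartic protease that matures surfactant protein B, had 11.42, 12.13 and 11.52 in knockout P2 lungs, against 12.44, 12.58 and 12.78 in knockout P1 lungs. Replicate 2 was the highest P2 array, and the groups did not overlap. Abca3, the lipid pump of lamellar bodies, fell by 0.58 and was lower by 0.28 in replicate 2. Etv5, a transcription factor that upholds type 2 cells, fell by 0.76 and was lower by 0.55 in replicate 2. Aqp5, the water channel of type 1 cells, had 10.74, 11.03 and 10.45 in knockout P2 lungs, against 11.39, 11.67 and 11.83 in knockout P1 lungs. Cldn18, the claudin that seals alveolar junctions, had 11.69, 11.96 and 11.47 in knockout P2 lungs, against 12.89, 12.42 and 12.60 in knockout P1 lungs. Both were below every P1 value on each P2 array, by 0.89 ± 0.14 and 0.93 ± 0.14 on average.

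For the whole lists the size of the fall differed with the arrays used. The medians were -0.17 for type 2 genes and -0.08 for type 1 genes with P2 replicate 2 alone. Without P2 replicate 1, 3 type 2 and 5 type 1 genes were called lower, where 2.05% of all genes were. Without P2 replicate 3, 8 and 6 were, where 3.72% of all genes were. Knockout hyperoxia P2 lungs had 7 type 2 genes and 7 type 1 genes lower than the P1 arrays, with medians of -0.35 and -0.25. Of all genes 6.57% were lower there. The wild type had 15 and 10 lower, with medians of -0.49 and -0.43, where 8.25% of all genes were lower. With all arrays limma called 0 members of either list for a difference between the genotypes. With P2 replicate 2 alone the knockout change minus the wild-type change had medians of 0.37 for type 2 and 0.44 for type 1 genes. Over all genes that median was 0.0006. Among the members it was 0.66 for Cd36 of the type 2 list, and 0.42 and 0.72 for Cav1 and Lmo7 of the type 1 list.

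Genes of fluid clearance showed the same dependence. The epithelium of the newborn lung takes up fluid through the sodium channel ENaC and moves water through aquaporins. Of 12 measured genes, 6 fell and 0 rose, where 6.47% of all genes fell. The median was -0.37 with all arrays and -0.04 with P2 replicate 2 alone. Without P2 replicate 1, 1 member was called lower, where 2.05% of all genes were, and without P2 replicate 3 also 1, where 3.72% were. Knockout hyperoxia P2 lungs had 3 lower (median -0.25), where 6.57% of all genes were. The wild type had 10 lower and 1 higher (median -0.77), where 8.25% of all genes were lower. The chloride channel Cftr had 7.68, 8.88 and 6.97 in knockout P2 lungs, against 8.76, 8.94 and 8.85 in knockout P1 lungs. Replicates 1 and 3 were low and replicate 2 lay among the P1 values. The difference of Cftr was thus -1.002 ± 0.28 with all arrays and 0.04 with replicate 2 alone. The other probe set of Cftr differed by -0.01 and was not called. Scnn1b, the beta subunit of ENaC, had 9.11, 9.45 and 9.02 in knockout P2 lungs, against 9.76, 9.67 and 9.66 in knockout P1 lungs. Atp1b1, the beta subunit of the sodium pump, had 12.17, 12.60 and 12.46 in knockout P2 lungs, against 12.69, 12.10 and 12.61 in knockout P1 lungs, with overlap. In wild-type lungs Atp1b1 had 12.20, 11.73 and 12.16 at P2, against 12.94, 12.95 and 12.92 at P1, and the change differed between the genotypes by 0.85 (adjusted p = 0.0253 in limma). This difference with P2 replicate 2 alone was 1.04.

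Interferon response genes rose in the knockout, most on P2 replicate 1. The score of the list was 0.63, 0.26 and -0.02 at knockout P2, against -0.12, -0.24 and -0.15 at knockout P1. The thymocyte scores of the same P2 arrays were 3.75, 0.72 and 2.82, and how far the 2 lists are linked was not tested. Interferons induce these genes through the STAT and IRF factors as a defence against viruses. Of 18 measured genes, 8 rose and 0 fell, where 6.86% of all genes rose. The median was 0.39 with all arrays, 0.39 in P2 replicate 2 alone, and 0.23 with the thymocyte score as a covariate. Oasl2, a relative of the 2-5A synthetases, had 7.84, 7.08 and 6.70 in knockout P2 lungs, against 5.68, 5.56 and 5.72 in knockout P1 lungs. It was higher on every P2 array, by 1.55 ± 0.24 on average (2.93-fold, adjusted p = 9.48e-05 in limma) and by 1.42 in replicate 2. Ifit1, which binds viral RNA, had 8.40, 7.47 and 6.68 in knockout P2 lungs, against 6.48, 6.67 and 6.51 in knockout P1 lungs. Replicate 1 was the highest and replicate 3 the lowest P2 array in both genes. Replicate 3 lay within 0.02 of the highest P1 value of Ifit1. Gbp3, Irf9, Irf7, Stat2, Irgm1 and Mx1 rose by 0.58, 0.40, 0.38, 0.36, 0.45 and 0.31, and stood at 0.49, 0.61, 0.23, 0.29, 0.52 and 0.18 in replicate 2. Rsad2, the antiviral viperin, had 11.23, 11.71 and 10.94 in knockout P2 lungs, against 10.26, 10.46 and 11.12 in knockout P1 lungs, and was not called.

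The interferon list had few calls elsewhere. In knockout hyperoxia P2 lungs 2 of 18 members were higher than on the P1 arrays, with a median of 0.11, where 6.71% of all genes were higher. Among wild-type lungs 1 of 18 was higher at P2, with a median of -0.03, a share near the 6.25% of all genes. Oasl2 had 6.27, 5.71 and 5.97 in wild-type P2 lungs, against 5.90, 5.89 and 5.82 in wild-type P1 lungs. Its change was larger in the knockout by 1.44 ± 0.34 (adjusted p = 0.0219 in limma), and by 1.31 with P2 replicate 2 alone (adjusted p = 0.081). It was the only member called for a difference between the genotypes. Without P2 replicate 1 the list had 1 rise, where 2.2% of all genes rose, and without P2 replicate 3 it had 9, where 6.85% did. The wild-type and knockout P2 mice were separate animals, and the litter of each is not given.

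Promoters of this list are known for repeats of GAAA, the core of the interferon-stimulated response element. A pair of GAAA runs with any 2 bases between them, searched after the data were seen, was in 10 of 15 promoters (66.7%), against 3.49% of all promoters, on either strand. Ifit1 (chr19:34640739-34640888, plus strand of GRCm38.p6, from RefSeq) is printed because it holds 2 copies in the 150 bases before its start, shown in capitals as they read on the printed strand.
Ifit1: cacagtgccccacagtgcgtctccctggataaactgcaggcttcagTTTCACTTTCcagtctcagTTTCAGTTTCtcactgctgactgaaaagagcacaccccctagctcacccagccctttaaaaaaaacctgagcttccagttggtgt

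The largest falls were also lower in replicate 2. Lcn2, the iron-siderophore binding protein lipocalin 2, had 9.62, 9.87 and 9.45 in knockout P2 lungs, against 11.14, 10.68 and 11.32 in knockout P1 lungs. The groups were clearly apart, and the fall of 1.41 ± 0.21 (2.65-fold, adjusted p = 7.29e-05 in limma) was the largest among named genes called without overlap. Retnla, a secreted resistin-like protein, had 9.76, 9.88 and 9.43 in knockout P2 lungs, against 11.27, 10.45 and 10.94 in knockout P1 lungs. Hlx, a homeobox factor of the mesenchyme, had 9.03, 9.25 and 8.82 in knockout P2 lungs, against 10.02, 10.21 and 10.24 in knockout P1 lungs. In replicate 2 alone Lcn2, Retnla and Hlx were lower by 1.18, 1.00 and 0.91 on the log2 scale. Wild-type lungs too had all 3 lower at P2 as well, with differences of -0.65, -0.85 and -0.95. S100a6, a calcium-binding protein, fell by 0.95 ± 0.13 and was lower by 0.78 in replicate 2.

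Other large falls were less even. Cyp1a1, the monooxygenase induced through the aryl hydrocarbon receptor, had 7.38, 7.55 and 6.31 in knockout P2 lungs, against 8.41, 8.83 and 7.63 in knockout P1 lungs. P2 replicate 3 was the lowest and the gap to P1 was narrow (adjusted p = 0.0393 in limma). Prkg2, a cGMP-dependent kinase, fell by 1.12 and Arg2, the mitochondrial arginase, by 1.06, and they were lower by 0.56 and 0.63 in replicate 2. Lrat, which stores retinol as esters, fell by 1.03 and was lower by 0.81 in replicate 2. The other probe set of Lrat differed by -0.13 and was not called. Kcne2, a potassium channel subunit, fell by 1.12 and Spaar, a gene of a lysosomal micropeptide, by 0.96, with -0.62 and -0.42 in replicate 2. The other probe set of Spaar differed by -0.01 and was not called.

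Immediate early genes, which cells switch on within minutes of a stimulus, were mixed. Of 20 measured genes, 3 fell and 2 rose, where 6.47% of all genes fell and 6.86% rose. Atf3, a stress-induced repressor, had 7.18, 7.61 and 7.09 in knockout P2 lungs, against 8.41, 8.75 and 8.46 in knockout P1 lungs. Klf4 fell by 0.81 and Fosl2 by 0.68, and they were lower by 0.51 and 0.37 in replicate 2. Egr1 had 10.93, 10.16 and 10.65 in knockout P2 lungs, against 9.81, 9.81 and 9.59 in knockout P1 lungs, a rise of 0.84 ± 0.24. Myc had 9.47, 7.63 and 8.62 in knockout P2 lungs, against 7.41, 7.55 and 7.58 in knockout P1 lungs, and its rise of 1.06 with all arrays was 0.11 with replicate 2 alone. Of the same 20, 13 fell and 0 rose in the wild type, where 8.25% of all genes fell and 6.25% rose. The change was called higher in the knockout for 1.73% of all genes and for 4 members. The 4 were Dusp1, Klf2, Klf6 and Zfp36, with differences of 1.34, 0.86, 0.79 and 1.24. These were 1.76, 1.06, 1.17 and 1.41 with P2 replicate 2 alone, and Klf2 was not called (adjusted p = 0.0622 in limma).

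Several rises kept most of their size in P2 replicate 2. H3f3b, a gene of the replacement histone H3.3 read by 1 probe set here, had 9.16, 8.90 and 8.94 in knockout P2 lungs, against 6.29, 6.66 and 7.07 in knockout P1 lungs. The 3 P2 values were close together and far above P1, by 2.33 ± 0.33 on average (5.03-fold, adjusted p = 3.34e-05 in limma) and by 2.23 in replicate 2. In the wild type H3f3b had 7.79, 8.05 and 8.32 at P2, against 6.41, 7.92 and 8.11 at P1, with overlap, and the change was larger in the knockout by 1.76 ± 0.46 (adjusted p = 0.0342), and by 1.66 with P2 replicate 2 alone (adjusted p = 0.172). Clk1, a kinase of splicing factors, had 11.47, 11.42 and 11.67 in knockout P2 lungs, against 10.43, 10.47 and 10.53 in knockout P1 lungs. Its difference was 1.04 ± 0.12 in the knockout and 0.94 in the wild type. Igf1, the insulin-like growth factor, had 10.14, 10.17 and 10.85 in knockout P2 lungs, against 9.57, 9.37 and 9.35 in knockout P1 lungs, and rose in the wild type too, by 1.30.

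A list of RNA-binding and splicing factors, which holds Clk1, had more rises than falls. Of 22 measured genes, 13 rose and 1 fell, with a median of 0.32, and with replicate 2 alone the median was 0.14. The splicing factor Srsf6 rose by 0.53 and Clk4, a relative of Clk1, also by 0.53, and in replicate 2 they were higher by 0.27 and 0.56. The other probe sets of Srsf6 differed by 0.09, 0.01 and -0.09 and were not called. Cirbp, the cold-inducible RNA-binding protein, was the member that fell, by 0.45 in the knockout and by 0.69 in the wild type. Of 18 genes of ribosomes and their assembly, 6 rose and 0 fell, all of them nucleolar factors such as Npm1, Nop56 and Nop58, with differences of 0.43, 0.69 and 0.69. In replicate 2 these were 0.24, 0.14 and 0.19.

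The 14 genes called with P2 replicate 2 alone were named after their values were seen. Of these, 9 were higher: Clk1, Mtf2, Pabpc1, Wif1, Zfp60, Zfp606, Ovol2 and the thymus genes Tbata and Cd8b1. The other 5, Tmprss4, Avpi1, AU015228, Atox1 and Dhcr7, were lower. Pabpc1, the cytoplasmic poly(A)-binding protein, had 13.77, 13.82 and 13.71 in knockout P2 lungs, against 13.29, 13.27 and 13.35 in knockout P1 lungs. Its difference of 0.47 ± 0.06 was small and even, whereas wild-type lungs had 13.44, 13.43 and 13.36 at P2, against 13.43, 13.45 and 13.43 at P1. The change differed between the genotypes by 0.50 ± 0.09 (adjusted p = 0.00168 in limma), and by 0.55 with P2 replicate 2 alone (adjusted p = 0.00683). Wif1, a secreted Wnt inhibitor, had 8.67, 9.39 and 8.69 in knockout P2 lungs, against 8.50, 8.20 and 8.31 in knockout P1 lungs. Mtf2, a partner of the polycomb complex that methylates histone H3, had 10.86, 9.78 and 10.29 in knockout P2 lungs, against 8.95, 9.01 and 9.20 in knockout P1 lungs. Avpi1, a small vasopressin-induced gene, had 8.72, 8.87 and 8.78 in knockout P2 lungs, against 9.41, 9.53 and 9.69 in knockout P1 lungs. Dhcr7, which makes cholesterol from its last precursor, had 8.68, 7.78 and 8.37 in knockout P2 lungs, against 8.44, 8.29 and 8.49 in knockout P1 lungs, so that replicate 2 alone was low.

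The known targets of NRF2 had 1 rise and 2 falls among 30 measured genes, a share near the 13.3% of all genes called in this comparison, with a median of -0.03. The quinone reductase Nqo1 had 7.56, 6.58 and 7.18 in knockout P2 lungs, against 6.64, 6.36 and 6.73 in knockout P1 lungs. Replicates 1 and 3 were high and replicate 2 lay among the P1 values, so that the difference was 0.53 ± 0.16 with all arrays (adjusted p = 0.0291 in limma) and 0.00 with replicate 2 alone. In wild-type lungs Nqo1 had 6.94, 6.77 and 7.04 at P2, against 7.42, 7.16 and 7.27 at P1. The glutathione transferase Gstm2 fell by 0.58 and the pentose phosphate enzyme Pgd by 0.28, and they were lower by 0.29 and 0.32 in replicate 2. Gclc and Gclm, the subunits of the enzyme that starts glutathione synthesis, had differences of -0.17 and 0.27 and were not called, nor was the heme oxygenase gene Hmox1, at -0.28. Of the same 30, 1 rose and 4 fell in the wild type.

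Glucocorticoid-responsive genes fell over the first day in the wild type and had 1 called fall among 16 in the knockout. Glucocorticoids prepare the lung for birth, and their level in blood also follows the time of day. Of 16 measured genes, 1 rose and 1 fell in the knockout, with a median of 0.02, and 1 rose and 8 fell in the wild type, with a median of -1.09. The change was higher in the knockout for 8 of the 16, where 315 of all genes (1.73%) were, with a median difference of 1.31. The clock gene and glucocorticoid target Per1 had 9.09, 10.04 and 9.64 in knockout P2 lungs, against 10.54, 9.36 and 9.77 in knockout P1 lungs, with overlap. In the wild type Per1 had 7.92, 7.64 and 7.89 at P2, against 10.10, 10.49 and 10.34 at P1, which are far apart. The change differed by 2.19 ± 0.40 (adjusted p = 0.00389 in limma).

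Klf9 and Fkbp5 followed different patterns. Klf9, a glucocorticoid-induced transcription factor, had 10.30, 11.67 and 10.68 in knockout P2 lungs, against 11.39, 10.62 and 10.88 in knockout P1 lungs. In the wild type it had 10.58, 10.50 and 10.67 at P2, against 12.18, 12.43 and 12.14 at P1. The wild-type P1 values were thus above all knockout values, while the P2 values of the genotypes overlapped. Fkbp5, the co-chaperone of the glucocorticoid receptor, had 10.92, 9.99 and 9.95 in knockout P2 lungs, against 9.46, 9.01 and 9.24 in knockout P1 lungs, a rise of 1.05 ± 0.30. In the wild type it had 8.73, 9.18 and 8.82 at P2, against 9.56, 9.83 and 9.65 at P1. Klf15, Cebpd, Dusp1, Errfi1 and Hif3a were the other members called for the difference, by 1.82, 1.52, 1.34, 1.28 and 0.73. With P2 replicate 2 alone 8 members were called for the difference, with a median of 1.79, and Fkbp5 was not among them (adjusted p = 0.144). The gene of the receptor itself, Nr3c1, differed by 0.01 in the knockout and 0.03 in the wild type.

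**Figure D5:**
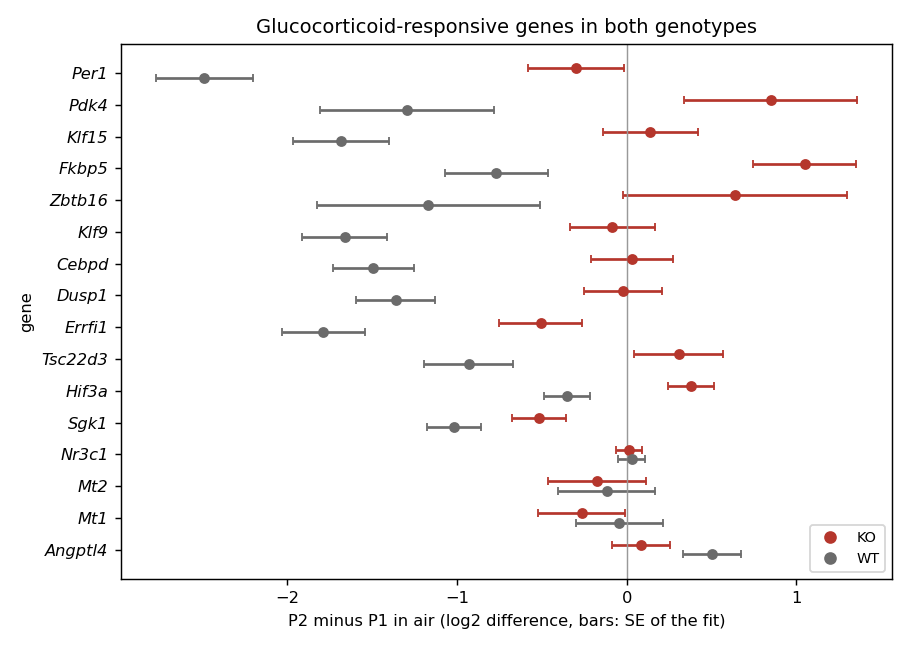
Log2 difference between P2 and P1 in air (horizontal axis) for 16 glucocorticoid-responsive genes, in the knockout (red) and the wild type (grey), with bars for the standard error of the limma fit. Per1, Klf15, Klf9, Cebpd and Dusp1 lie between -0.30 and 0.14 in the knockout and between -2.49 and -1.36 in the wild type.

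Among circadian clock genes the change differed between the genotypes in 1, Per1, which the glucocorticoid list also holds. Of 18 measured genes, 2 fell and 0 rose in the knockout, and 8 fell and 1 rose in the wild type. Of all genes 13.3% were called in the knockout and 14.5% in the wild type, so the knockout share of the list was not above that. The members that fell in the knockout were Bhlhe40, by 0.55, and Cry2, by 0.35. Bhlhe40 had 8.36, 8.40 and 8.26 in knockout P2 lungs, against 8.79, 9.01 and 8.88 in knockout P1 lungs. For the difference 2 members were called with P2 replicate 2 alone. The hour at which each lung was taken cannot be told apart from the groups here, since no source used gives it.

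Across all genes, the change differed between the genotypes in 482 genes, of which 315 were higher in the knockout and 167 lower (0.918%). With P2 replicate 2 alone the count was 202 (1.11%), with 153 higher and 49 lower. The 10 genes with the smallest p were not thymus genes. Vcan, the matrix proteoglycan versican, had 9.79, 9.95 and 9.74 in knockout P2 lungs, against 10.03, 9.70 and 9.31 in knockout P1 lungs, while wild-type lungs had 10.61, 10.27 and 10.55 at P2, against 8.66, 9.20 and 9.05 at P1. It rose in the wild type and showed overlapping values in the knockout, and the change differed by -1.35 ± 0.17 (adjusted p = 3.22e-05 in limma). Ppp1r3c, which brings a phosphatase to glycogen, had 11.17, 11.29 and 10.73 in knockout P2 lungs, against 10.99, 11.25 and 11.15 in knockout P1 lungs, while wild-type lungs had 11.54, 11.70 and 11.65 at P2, against 10.02, 9.86 and 9.99 at P1. In both genes the knockout P1 values lay above all wild-type P1 values. Ddit4, a stress-induced inhibitor of mTOR signalling, had 10.21, 10.10 and 10.43 in knockout P2 lungs, against 10.50, 9.64 and 10.05 in knockout P1 lungs, while wild-type lungs had 9.70, 9.27 and 9.52 at P2, against 10.97, 11.09 and 10.90 at P1.

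Of the remaining 7, Hdhd3 and Thbs3, a thrombospondin, had a knockout change minus wild-type change of -1.15 and -1.03. Both differed by -0.36 in the knockout, and by 0.78 and 0.67 in the wild type. For 5 others the knockout change minus the wild-type change was above 0: Esco1, an acetyltransferase of cohesin, at 1.23, Csrnp1 at 1.37, Rbm33 at 0.95, Srp54b, a subunit of the signal recognition particle, at 0.98 and the transcription factor Ets2 at 0.83. These 5 genes had knockout differences of 0.26, -0.21, 0.09, 0.28 and 0.34, and wild-type differences of -0.97, -1.57, -0.86, -0.70 and -0.49. With P2 replicate 2 alone all 10 kept their sign, with adjusted p between 0.000262 and 0.0178, and their differences were -1.23 for Vcan, -1.52 for Ppp1r3c and 1.53 for Ddit4.

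Other lists had few calls or none, where 13.3% of all genes were called in the knockout and 14.5% in the wild type. The knockout shares of the matrix and endothelial lists were below that. In 10 lists, with 140 measured genes, limma called no member, and 2 of the 140 had an unadjusted p under 0.05. They were the lists of club cells, ciliated cells, smooth muscle and myofibroblasts, mast cells, erythroid cells, liver, heart muscle, skeletal muscle, fat and the respiratory chain. Of these, the liver, skeletal muscle and heart muscle lists had medians of 1.07, 0.56 and 0.43 with all arrays, with replicate 3 high, and of -0.21, -0.19 and -0.26 with P2 replicate 2 alone. Of 20 matrix genes 2 fell and 0 rose in the knockout, while 7 rose and 2 fell in the wild type. The elastin gene Eln had 13.47, 13.73 and 13.86 in knockout P2 lungs, against 13.86, 13.88 and 13.91 in knockout P1 lungs. Of 20 endothelial genes 2 fell, Cldn5 by 0.41 and Nos3, the nitric oxide synthase of endothelium, by 0.50, with -0.15 and -0.22 in replicate 2. Vegfa, the growth factor that alveolar epithelium supplies to capillaries, had 11.07, 11.67 and 11.18 in knockout P2 lungs, against 11.59, 11.49 and 11.44 in knockout P1 lungs. The methyltransferase gene Inmt had 10.93, 11.87 and 11.30 in knockout P2 lungs, against 11.64, 11.83 and 11.76 in knockout P1 lungs, with overlap, and fell by 1.43 in the wild type.

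Single members of the other lists passed the test, where 13.3% of all genes were called. The shares called of the p53, hypoxia and macrophage lists were near or below that share. Of 23 heat shock and chaperone genes 5 rose and 2 fell, led by Hspd1 at 0.52, which was 0.12 in replicate 2. Of 15 p53 target genes, Trp53inp1 rose by 0.77 and Bbc3, the proapoptotic PUMA, fell by 0.46, with 0.44 and -0.20 in replicate 2. Cdkn1a, the p53-induced inhibitor of cyclin-dependent kinases, had 9.82, 10.29 and 9.88 in knockout P2 lungs, against 10.65, 10.29 and 10.28 in knockout P1 lungs, and was not called. Of 19 hypoxia targets, Egln3 rose by 0.75 and Higd1a fell by 0.39, and in replicate 2 they stood at 0.20 and -0.41. Of 17 genes of the ATF4 response, Phgdh and Shmt2, which make serine and glycine, rose by 0.71 and 0.41, and Atf4 fell by 0.30. In replicate 2 Phgdh, Shmt2 and Atf4 stood at -0.13, 0.05 and -0.35. The other probe sets of Shmt2 differed by -0.05, 0.28 and -0.04 and were not called. Of 19 macrophage genes, C1qa and C1qb rose by 0.54 and 0.56 with all arrays, and stood at -0.09 and -0.03 in replicate 2. Of 23 chemokine and acute phase genes 1 rose and 3 fell, with a median of -0.16. Cxcl10 rose by 1.65 and stood at 0.28 in replicate 2. Besides Lcn2, Il33, an alarmin cytokine, fell by 0.60 and Cxcl12 by 0.45, and they stood at -0.30 and -0.25 in replicate 2. The probe sets of Cxcl12 disagreed. Another rose by 0.70 (adjusted p = 0.0141 in limma over every probe set), and a further one differed by -0.09. Of 11 genes of cyclins and inhibitors, Ccng2 rose by 0.69, with 0.67 in replicate 2, Cdkn2c and Ccnd3 rose by 0.73 and 0.48, and Ccnd1 fell by 0.40. In replicate 2 Cdkn2c, Ccnd3 and Ccnd1 stood at 0.34, -0.07 and -0.03.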

How the data were processed

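Whole-lung RNA was measured on Affymetrix mouse whole-genome arrays, 1 mouse per array. The deposited values are log2 intensities that the authors made with GCOS and RMA, per the submitters' processing notes, which name no version. RMA shares information across arrays and compresses low signals, so differences of dim genes are understated. Of 45101 probe sets, 34958 had 1 gene symbol, 932 several and 9211 none, and each of 18194 genes was read by its probe set of highest mean. All columns belonged to a sample, so the count of columns of no sample was 0. Array medians ran from 7.52 to 7.75. The number of arrays limits the precision.

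All 42 arrays entered 1 limma 3.58.1 fit in R 4.3.3 with a mean per group, with Benjamini-Hochberg adjustment over all genes and a threshold of 0.05. The fit was tested on simulated data. Named genes were the 12 largest rises and falls without overlap, up to 4 called members per list and direction, 10 genes for the genotype difference, a few fixed genes, and list members by value. A rule for genes called with the thymocyte score as covariate named none. Genes that kept 70% of their size in P2 replicate 2, or were called with it alone, were named after their values were seen. The 40 lists held 713 genes, of which 658 were measured. Members, lists and alternatives were chosen with earlier results of these data known. The results were recomputed under 24 alternative settings. Replicates are separate mice, and no label read here gives litter or batch. Same-numbered wild-type arrays of P2 and P1 correlated at 0.44, 0.66 and 0.1772 in their deviations from the group means. Same-numbered knockout arrays correlated at 0.03, -0.09 and -0.26. Wild-type P2 replicate 1 and P1 replicate 3 correlated at 0.1843, so the check does not show that the numbers pair samples. The wild-type arrays numbered 2 both had high liver scores (6.60 and 4.14), and those numbered 1 high heart muscle scores (2.35 and 2.46). What raised the wild-type correlations was not tested. Promoter sequences came from RefSeq.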

Additional observations from a re-analysis of the deposited data

Results flagged for a closer look

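The change from P1 to P2 in air differed between knockout and wild type, by limma's test of the difference, in 64 of the named genes and list members. Values are knockout change minus wild-type change on the log2 scale. T cell and thymus genes, high on knockout P2 replicates 1 and 3, were Ccr9 at 4.49, Tbata at 4.16, Cd3g at 4.06, Prss16 at 4.03, Trbv1 at 3.91, Cd8b1 at 3.81, Ccl25 at 3.51 and Bcl11b at 3.35. Next came Satb1 at 3.35, Cd3d at 3.34, Arpp21 at 3.06, Cd5 at 3.03, Thy1 at 2.96, Trav9d-3 at 2.92, Themis at 2.61 and Cd6 at 2.18. Then came Lat at 1.83, Cd3e at 1.67, Ptcra at 1.48, Cd4 at 1.36, Rag2 at 1.33 and Endou at 1.27. MHC and presentation genes were H2-Q2 at 3.12, H2-Ab1 at 1.59, Psmb8 at 1.37 and Tap2 at 0.86.

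Glucocorticoid-responsive and immediate early genes were Per1 at 2.19, Klf15 at 1.82, Fkbp5 at 1.82, Klf9 at 1.58, Cebpd at 1.52 and Dusp1 at 1.34, with Errfi1 at 1.28, Zfp36 at 1.24, Klf2 at 0.86, Klf6 at 0.79 and Hif3a at 0.73. Further genes above 0 were H3f3b at 1.76, Ddit4 at 1.67, Oasl2 at 1.44, Csrnp1 at 1.37, Fmo2 at 1.32, Trp53inp1 at 1.32, Esco1 at 1.23 and Srp54b at 0.98. Lower among them were Rbm33 at 0.95, Nqo1 at 0.89, Atp1b1 at 0.85, Herpud1 at 0.84, Ets2 at 0.83, Pmvk at 0.82, Emcn at 0.66 and Pabpc1 at 0.50. The smallest were Luc7l at 0.48 and Srsf5 at 0.40. Genes below 0 were Calr at -0.39, Emilin1 at -0.48, Tnc at -0.61, Pdia4 at -0.65, Thbs3 at -1.03, Hdhd3 at -1.15, Il33 at -1.30, Vcan at -1.35 and Ppp1r3c at -1.74. With P2 replicate 2 alone, 27 of the 64 were called. No outlier test was run on single values within groups of 3 arrays, and ranges of counts with 1 replicate left out are given below.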

How the results depend on the processing

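The 2427 calls of the knockout became 4127 with every probe set tested, 0 with only the arrays of the contrast, 0 with the thymocyte score as covariate, 2 with 4 tissue scores and 14 without P2 replicates 1 and 3. Leaving out 1 replicate gave 774 to 3893. The 482 calls of the genotype difference became 745 with cyclic loess, 951 with array weights, 1575 with every probe set, 5 with only the arrays of the contrast, 126 with the thymocyte score, 268 with 4 tissue scores and 202 without P2 replicates 1 and 3, and leaving out 1 replicate gave 186 to 1079. The 2638 wild-type calls became 4994 with every probe set and 860 with only the arrays of the contrast. The share of higher calls was 58.4% with cyclic loess and 44% with array weights in the knockout, against 51.5%. The cause of these shifts was not tested.

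With the replicate number as a block the counts were 2488 in the knockout, 2721 in the wild type and 463 for the difference. Under the block AU015228 lost its call in the knockout (adjusted p = 0.0531 in limma) and no other named knockout call was lost. The genotype difference was then called in 2 interferon and 2 clock genes, against 1 each.

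Single genes changed sign. The knockout differences without P2 replicates 1 and 3 became -0.087 for C1qa, -0.034 for C1qb, -0.070 for Ccnd3, 0.037 for Cftr, -0.13 for Phgdh and 0.034 for Wnt2. The knockout differences with 4 tissue scores became -0.19 for C1qa, -0.14 for C1qb, -0.23 for Ccnd3, -0.020 for Cdkn2c, 0.051 for Col4a2, -0.33 for Cxcl10, -0.012 for H2-Aa, -0.016 for H2-Ab1, -0.091 for Myc, -0.040 for Nop56, -0.0046 for Pcna, -0.37 for Phgdh and -0.14 for Shmt2. The knockout differences with the thymocyte score as covariate became -0.19 for C1qa, -0.12 for C1qb, -0.23 for Ccnd3, -0.078 for Cdkn2c, 0.002 for Cftr, 0.055 for Col4a2, -0.32 for Cxcl10, -0.032 for H2-Aa, -0.032 for H2-Ab1, -0.11 for Myc, -0.054 for Nop56, -0.011 for Pcna, -0.40 for Phgdh and -0.14 for Shmt2. The knockout differences with the mean of probe sets became 0.053 for Cxcl12. The genotype differences with 4 tissue scores became -0.25 for Bcl11b and -0.094 for Trbv1. The genotype differences with the thymocyte score as covariate became -0.25 for Bcl11b and -0.086 for Trbv1.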

Other observations

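Knockout P2 replicate 2 had a knockout hyperoxia P2 array as its nearest array by correlation over all genes. The lowest correlation of an array within its group was 0.981 at knockout P2 in air, against 0.995 at knockout P1.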
